A study of Sus scrofa with 16 samples.

Results

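The glutathione S-transferases of pig liver were followed here through 17 of the 43603 probes on a porcine array. Of these, 3 probes were listed by their probe name, chosen by their measured signal, which was already known to separate pigs of both lines, and 14 carry the symbol of a listed gene. The symbols found were GSTA1 with 1 probe, GSTA2 with 3, GSTA4 with 2, GSTO1 with 1 and MGST1 with 7. GSTA4 was reached through a locus number that the RefSeq gene table pairs with that symbol. GSTP1 was listed too, but 0 probes carry its symbol. By the gene names in the files, these probes stand for 7 of 36108 genes or transcripts. All 17 probes were bright enough to enter the comparison.

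Liver total RNA of each of 16 pigs, labelled with Cy3, was put on its own array of 1 colour. The low-RFI line (RFIneg) and the high-RFI line (RFIpl) gave 8 pigs each, all at 20 kg body weight and fed ad libitum, with no age given. RFI, residual feed intake, is the feed an animal eats above or below what its growth and maintenance predict. As these are the only lines, the effect of selection on RFI and any other way in which the lines differ cannot be told apart.

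Glutathione S-transferases join the tripeptide glutathione to electrophilic compounds, which makes drugs, plant toxins and products of lipid peroxidation easier to export. The soluble enzymes fall into classes named by Greek letters, and hepatocytes hold large amounts of the alpha class. Microsomal members belong to a separate family of membrane proteins.

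A level is the log2 signal of a probe minus the 75th percentile of log2 signal on its array. Differences are low-RFI minus high-RFI on the log2 scale, so a positive value means a higher level in low-RFI liver. The arrays lay on 4 slides, and each slide held 2 pigs of either line. Between 28576 and 34977 probes per array were well above background, and precision is limited by how many arrays there are, the median standard error (SE) being 0.16. The array of high-RFI pig 6 stood apart, with a median correlation of 0.961 with the other arrays, against 0.982 to 0.986 for the remaining 15. Hepatocyte markers were bright, albumin (ALB) at 9.32 ± 0.13 in low-RFI pigs, against 9.29 ± 0.21 in high-RFI pigs (SD, n = 8 each), which fits the tissue label. In bulk liver, fewer cells of a type and less RNA per cell cannot be told apart.

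Because they include the 3 probes listed by name, which varied most among pigs, the alpha-class sequences are shown first. Each is a 60-base array probe as the scanner files give it, written 5′ to 3′, of which bases 1 to 30 are printed for the 3 probes listed by name and all 60 for GSTA1 and GSTA2. Capitals mark bases that A_72_P497485 and A_72_P517950 hold in common within the printed stretches. The whole probes share a run of 46 bases, from base 15 of A_72_P497485 and from base 1 of A_72_P517950.
A_72_P302044: acctaatgttgatcctgggtgtgtgggacc
A_72_P497485: ctgtcaaagaattaGGTGTAGAAATTCAAA
A_72_P517950: GGTGTAGAAATTCAAAtctgacaattgtag
GSTA1 A_72_P607988: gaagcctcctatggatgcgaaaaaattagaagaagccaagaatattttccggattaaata
GSTA2 A_72_P127076: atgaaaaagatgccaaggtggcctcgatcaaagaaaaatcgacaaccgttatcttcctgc

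A_72_P302044 is described in the files as similar to glutathione S-transferase A3-3 of the dog. A_72_P497485 and A_72_P517950 come from the same assembled transcript, described as a partial pig glutathione S-transferase. That pair lists an accession that RefSeq (Sscrofa11.1) assigns to LOC100526118. In the RefSeq gene order this gene lies between GSTA1 and GSTA4, which are separated by 3 genes, of which 2 are protein-coding. A_72_P302044 shares no run of 20 bases or more with any other member probe. The files name A_72_P127076 as GSTA2, but GSTA1 is the only RefSeq gene that its listed accessions match. The signals of these close paralogs may therefore be shared. The other GSTA2 probes, A_72_P088136 and A_72_P634937, match 0 RefSeq genes in this way.

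The 3 probes listed by name had either a very high or a near-background signal, and the same pigs were high for all of them. High signal was found in 10 pigs, 6 of 8 low-RFI and 4 of 8 high-RFI pigs. A_72_P302044 had levels of 5.25, 6.34, 6.39, 6.38, 5.59 and 7.15 in low-RFI pigs 1, 2, 3, 4, 5 and 8, and -5.94 and -5.95 in low-RFI pigs 6 and 7. In the high-RFI line it had 5.53, 5.85, 5.90 and 6.68 in pigs 2, 3, 5 and 8, and -5.05, -4.95, -7.11 and -4.85 in pigs 1, 4, 6 and 7. No pig lay between -4.85 and 5.25, and each line held pigs of both kinds.

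The processed signal of A_72_P302044 was 15646 to 55953 intensity units in the 10 high pigs and 2.32 to 13.5 units in the 6 dim pigs. The gap between the nearest pigs was 10.10 on the log2 scale, or 1097-fold. A_72_P497485 ranged over 3.58 to 5.76 in high pigs and over -7.39 to -5.48 in dim pigs, a gap of 9.06. As its dim signal was not well above background in any pig, only a bound holds, and the high pigs were at least 451-fold brighter than the dim pigs, set to the lowest signal well above background on their array where their own was lower. A_72_P517950 ranged over 4.42 to 6.59 in high pigs and over -5.62 to -3.30 in dim pigs, a gap of 7.72 or 211-fold. The dim signal was well above background in 3 of 6 pigs for A_72_P302044, in 0 of 6 for A_72_P497485 and in 5 of 6 for A_72_P517950. Because the dim values lie close to background, the gaps depend on the background correction and on any offset added to the signal. They were 7.45, 6.07 and 6.22 in the same order of probes with the normexp method. That setting adds an offset of 50 units, more than any dim signal here, which by itself narrows the gaps. How much of the change is due to the correction was not tested. The same 10 pigs were high with median, quantile and cyclic loess scaling, with normexp and with outlier spots kept, and also in the authors' table for A_72_P302044 and A_72_P517950.

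**Figure D1:**
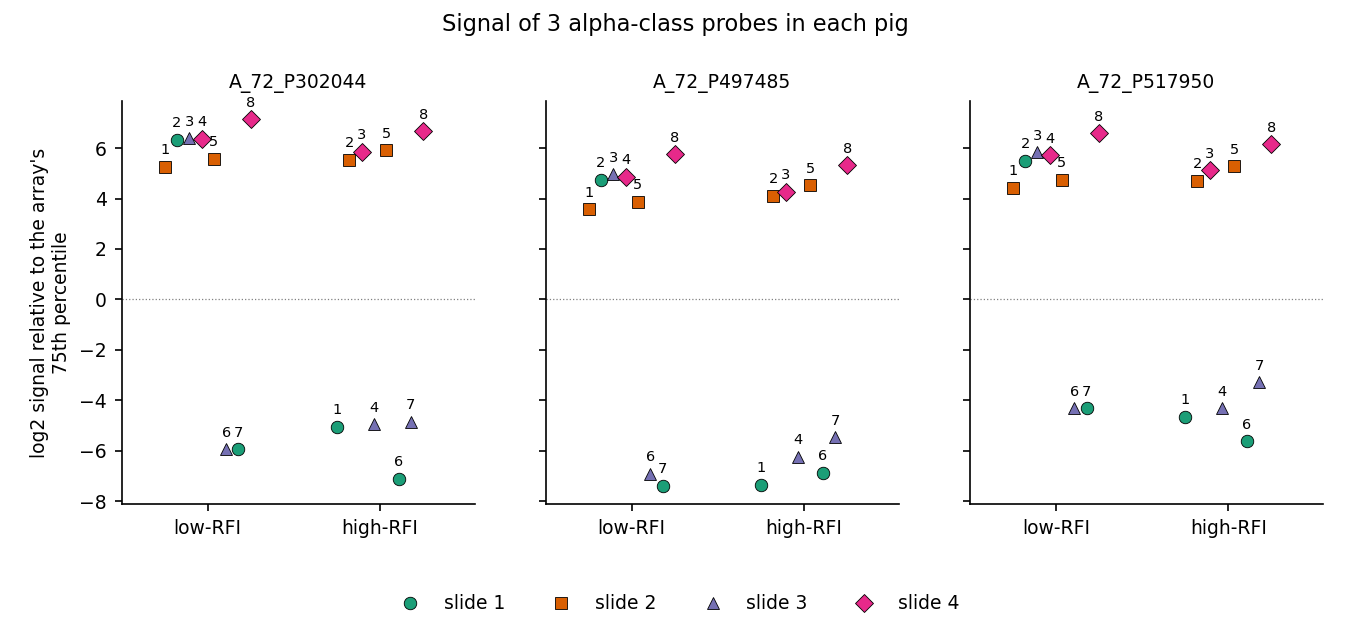
Level of A_72_P302044, A_72_P497485 and A_72_P517950 in each pig, as log2 signal relative to the array's 75th percentile, with low-RFI pigs left and high-RFI pigs right in each panel. Numbers are pig numbers, symbols are slides and the dotted line is the 75th percentile. The same 10 pigs lie above the line in all 3 panels, and 6 pigs lie far below it.

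These 3 probes had the largest standard deviations over the 16 pigs of all 30097 tested probes, at 5.91, 5.69 and 4.96. As they were chosen by their measured signal, these ranks and the comparisons of gaps below restate that choice and are a description. A_72_P497485 was well above background in the 10 high pigs only. Among the other 30094 tested probes, 7 were higher in each of the same 10 pigs than in every dim pig, with a gap of at most 0.15. A further 29 were lower in each of them, with a gap of at most 0.19. For any other split with at least 2 pigs on either side, 0 of 29998 other tested probes with a value in every pig had a gap as wide as the 7.72 of A_72_P517950. The widest was 6.82, for A_72_P007901, with 14 pigs above it.

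The dim pigs were not spread evenly over the slides. Slides 1 and 3 each held 3 dim pigs of 4, 1 low-RFI and 2 high-RFI, while slides 2 and 4 held 0 dim pigs. Slides 1 and 3 also each held 1 low-RFI pig with high signal. The part of the slide in the separation was not tested.

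The line means of these probes follow from the unequal split of pigs and are given as a description, since the probes were listed with their values known. A_72_P302044 averaged 3.15 ± 5.64 in low-RFI pigs, against 0.25 ± 6.18 in high-RFI pigs (SD, n = 8 each), a difference of 2.90. For A_72_P497485 the difference was 2.66 and for A_72_P517950 it was 2.60. Within slides 2 and 4, where all pigs were high, A_72_P302044 differed between the lines by -0.30 and 0.50. Within slides 1 and 3 the differences were 6.27 and 5.12.

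Within the 10 pigs of high signal the probes still differed from pig to pig, and they did so together. Pearson's r among the 3 probes was 0.988 to 0.993, and Spearman's rho was 0.988 to 1.0, over 3 relations. The lowest of them without the 2 pigs farthest from the median was 0.971. Part of this is built in, as A_72_P497485 and A_72_P517950 overlap.

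GSTA2 followed the same order of pigs. A_72_P517950 and GSTA2 (A_72_P127076) had r = 0.950 and rho = 1.0 over the 10 high pigs. Without the 2 farthest pigs r was 0.895, and in the 6 low-RFI pigs among them it was 0.959. A_72_P302044 and GSTA2 had r = 0.950, and A_72_P497485 and GSTA2 had r = 0.926. The other GSTA2 probes gave r of 0.903 to 0.971. With slide means removed, which leaves 8 of the 10 pigs informative, r with A_72_P127076 was 0.833 to 0.895 for the 3 probes. These relations are a description with no test, since both the probes and the 10 pigs were chosen by the signals compared, and the 4 high-RFI pigs and the slides of at most 4 pigs are too few for values of their own.

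GSTA1 and the 3 probes had r of 0.615 to 0.669 in the same pigs, and 0.461 to 0.556 without the 2 farthest pigs. GSTA4 had r of 0.738 to 0.780, but only 0.434 to 0.519 without the 2 farthest pigs. Leaving out the farthest pigs narrows the range of levels, which can by itself lower r. For GSTO1 r was 0.662 to 0.726, and for MGST1 it was 0.626 to 0.683. Without the 2 farthest pigs these were 0.603 to 0.710 for GSTO1 and 0.466 to 0.567 for MGST1. Whether the relation with GSTA2 differs from these was not tested. In the 6 dim pigs, the 3 probes and GSTA2 showed no stable relation, on values near background. For A_72_P302044, A_72_P497485 and A_72_P517950 in turn, r was 0.520, 0.722 and 0.481, rho was 0.543, 0.600 and -0.029, and r without the 2 farthest pigs was 0.803, 0.052 and -0.820.

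**Figure D2:**
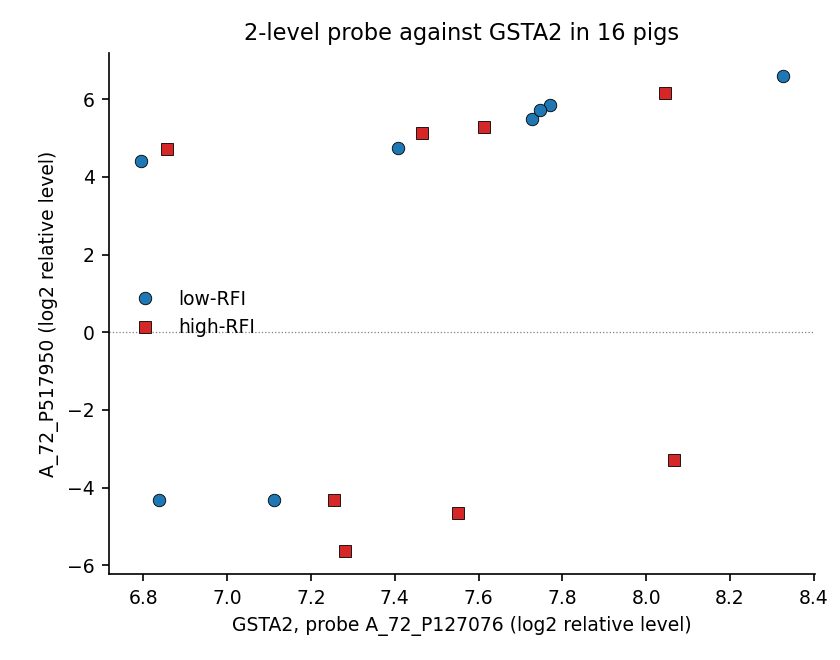
Level of A_72_P517950 (vertical axis) against that of GSTA2, probe A_72_P127076 (horizontal axis), both as log2 signal relative to the array's 75th percentile, 1 point per pig. The 10 pigs of high signal climb along with GSTA2 (r = 0.950), while 6 pigs of both lines lie below -3.

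GSTA2 itself did not separate the pigs in this way. Its level in low-RFI liver was 6.79 at the lowest, 7.57 at the median and 8.33 at the highest, against 6.86, 7.51 and 8.07 in high-RFI liver. GSTA2 encodes a major alpha-class enzyme of liver, which also reduces lipid hydroperoxides. The lines averaged 7.47 ± 0.53 in low-RFI pigs, against 7.52 ± 0.41 in high-RFI pigs (SD, n = 8 each), and their ranges overlap almost completely. The difference was -0.05 (SE 0.221, limma adjusted p = 0.998, 95% interval -0.52 to 0.42), and within slides 1 to 4 it was -0.13, -0.13, -0.22 and 0.28. Its sign turned without low-RFI pig 1 or 7 or high-RFI pig 7 or 8, to at most 0.045.

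The other GSTA2 probes gave differences of -0.05 for A_72_P088136 and -0.28 for A_72_P634937. A_72_P634937 varied most among pigs, from 3.25 to 6.90 in low-RFI and from 3.54 to 6.58 in high-RFI liver. Its SD over 16 pigs was 1.04, larger than that of 98.1% of the tested probes. All 3 probes ranked the pigs alike, with r of 0.916 to 0.949 over 16 pigs and a permutation p of 1e-05 for each of 3 relations, the smallest they can give. With slide means removed r was 0.881 to 0.947.

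GSTA1 encodes another alpha-class enzyme and had the largest negative difference among the genes named by symbol. Its level was 6.07 at the lowest, 6.52 at the median and 7.22 at the highest in low-RFI pigs, against 5.92, 7.21 and 7.73 in high-RFI pigs. High-RFI pigs held both the lowest and the highest value, so the groups overlap. The means were 6.57 ± 0.41 in low-RFI pigs, against 7.01 ± 0.61 in high-RFI pigs (SD, n = 8 each), a difference of -0.44 (SE 0.242, limma adjusted p = 0.963, 95% interval -0.95 to 0.07). Within slides 1 to 4 it was -0.15, -0.67, -0.61 and -0.33. The lowest GSTA1 value in the high-RFI line was that of pig 6, whose array stood apart, and without it the difference was -0.60.

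GSTA1 and GSTA2 varied together over the 16 pigs, with r = 0.758 (permutation p = 0.00105, adjusted 0.0061 over 10 relations, two-sided) and rho = 0.768. The r was 0.675 without the 2 farthest pigs, 0.917 within the low-RFI line and 0.792 within the high-RFI line. With slide means removed and permutations within slides, a setting added after the data had been seen, r was 0.667 and the adjusted permutation p 0.0716, so the call was lost. Slide 4 was high for both genes, and their probes may share signal. The part of either in their relation was not tested.

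GSTA4 acts on reactive aldehydes that lipid peroxidation leaves, such as hydroxynonenal. Its level was 2.1 at the lowest, 2.78 at the median and 3.64 at the highest in low-RFI pigs, against 2.02, 2.44 and 3.36 in high-RFI pigs. The ranges overlap over most of their width. The difference was 0.31 (SE 0.208, limma adjusted p = 0.977, 95% interval -0.13 to 0.74), with means of 2.81 ± 0.45 in low-RFI pigs, against 2.50 ± 0.43 in high-RFI pigs. Within slides 1 to 4 it was 0.01, 0.17, 0.01 and 1.03, so most of it came from slide 4, and without low-RFI pig 8 it was 0.19. The other GSTA4 probe, which shares 34 bases with the first, gave 0.29.

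GSTO1 encodes the omega-class enzyme, which is known for reducing dehydroascorbate and methylated arsenic. It was the steadiest member, at 7.80, 7.94 and 8.16 (lowest, median, highest) in low-RFI pigs and 7.66, 7.89 and 8.00 in high-RFI pigs. Its SD over 16 pigs was 0.115, and only 0.784% of the tested probes had a smaller one. The difference was 0.09 (SE 0.0812, limma adjusted p = 0.979, 95% interval -0.08 to 0.26), and within slides 1 to 4 it was 0.14, 0.07, -0.03 and 0.19. The means were 7.96 ± 0.11 in low-RFI pigs, against 7.87 ± 0.10 in high-RFI pigs. With normexp the difference was -0.010.

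**Figure D3:**
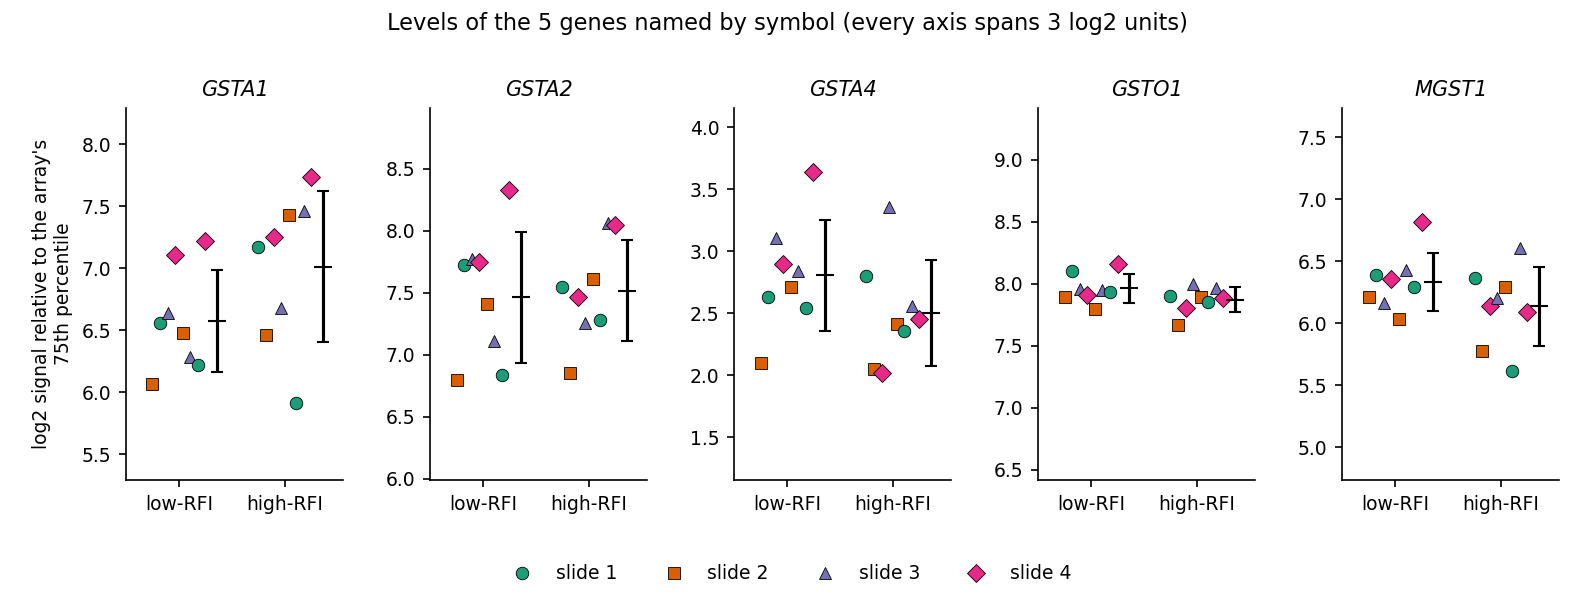
Levels of GSTA1, GSTA2, GSTA4, GSTO1 and MGST1 by pig, as log2 signal relative to the array's 75th percentile, low-RFI left and high-RFI right, with slides as symbols and the mean ± SD of 8 pigs beside each group. Each axis spans 3 log2 units, so GSTO1 (SD 0.115) appears narrow and GSTA1 (SD 0.551) wide, and the lines overlap in every panel.

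MGST1, the microsomal transferase, sits in the endoplasmic reticulum and the outer mitochondrial membrane and also has peroxidase activity. Its brightest probe, A_72_P618926, had 6.03, 6.32 and 6.81 (lowest, median, highest) in low-RFI pigs and 5.62, 6.17 and 6.61 in high-RFI pigs. The difference was 0.20 (SE 0.141, limma adjusted p = 0.979, 95% interval -0.10 to 0.50). Within slides 1 to 4 it was 0.35, 0.09, -0.11 and 0.48, and without low-RFI pig 8 or without high-RFI pig 6 it was 0.13. Of the 7 MGST1 probes, 6 had a positive difference and 1 a negative one, over a range of -0.21 to 0.36. The smallest p of any member named by symbol was that of the MGST1 probe A_72_P035861, at 0.0587 before and 0.939 after adjustment (limma).

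The most negative and the most positive MGST1 probe are near-identical in sequence. A_72_P691959 and A_72_P035861 start at bases 621 and 622 of the same transcript, per the files. Bases 34 to 60 of both are printed below, with capitals at the base that differs. The change is T16C, with A_72_P691959 given first and positions counted from 1 at the 5′ end of the printed stretch, and 3 other edits separate the remainder of these probes.
A_72_P691959: gaataataatgtcacTcatatccttta
A_72_P035861: gaataataatgtcacCcatatccttta

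The ratio of these 2 probes changed among pigs in steps. With the median over pigs set to 0 on the log2 scale, 10 pigs lay between -0.13 and 0.05, 7 low-RFI and 3 high-RFI. A second set of 5 pigs lay between 0.82 and 0.85, namely low-RFI pig 5 and high-RFI pigs 2, 3, 4 and 6. High-RFI pig 8 stood alone at 1.80. No pig fell between these values, and each of the larger sets came from all 4 slides.

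The SD of this log2 ratio over pigs was 0.576. For the 10 pairs among the other 5 MGST1 probes it was 0.047 to 0.147, and A_72_P618926 and A_72_P672779 share a run of 45 bases. With those 5 probes, A_72_P691959 gave an SD of 0.406 to 0.447 and A_72_P035861 one of 0.177 to 0.216. The pigs in these steps are not those in which A_72_P302044 was dim: of the 6 pigs above 0.8, high-RFI pigs 4 and 6 were dim and the other 4 were high. Line differences were 0.15 to 0.26 for the other 5 MGST1 probes, against -0.21 for A_72_P691959 and 0.36 for A_72_P035861. How much of the difference of this pair goes with the uneven split of the steps between the lines was not tested. The cause of the steps was not tested either.

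**Figure D4:**
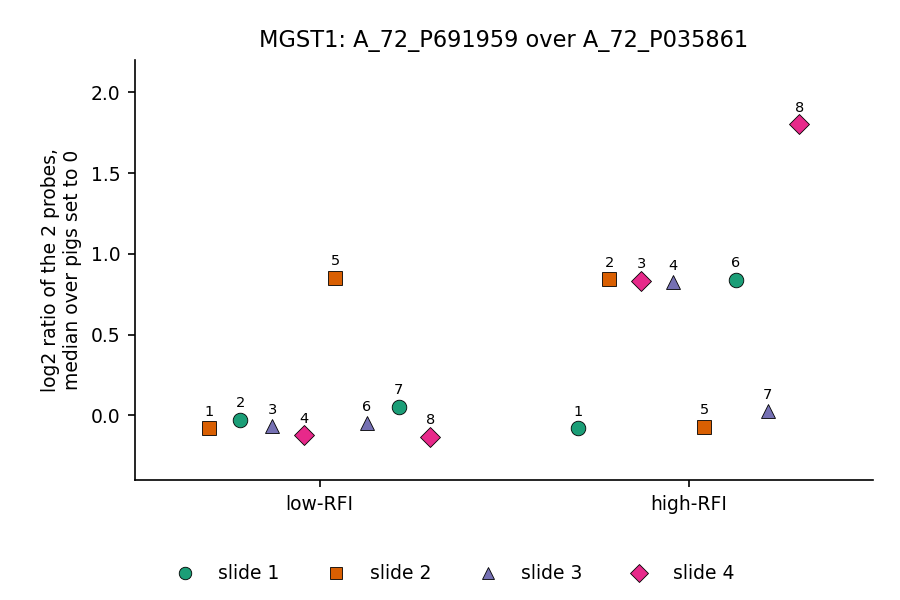
Log2 ratio of the MGST1 probes A_72_P691959 over A_72_P035861 in each pig, with the median over pigs set to 0, low-RFI left and high-RFI right; numbers are pig numbers and symbols are slides. The pigs lie in 3 narrow bands, near 0, at 0.82 to 0.85 and at 1.80.

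Set side by side, 0 of the 14 probes named by symbol passed the limma test at an adjusted p of 0.05, and 0 had an unadjusted p below 0.05. Over all 30097 tested probes 3 passed (0.00997%), 0 of them higher in low-RFI, and 5.45% had an unadjusted p below 0.05. The share called among the members is therefore not apart from the background. Of the 14 probes, 9 had a positive and 5 a negative difference, with a median of 0.17, beside a median of -0.0012 and 49.7% above 0 over all tested probes. With normexp these medians were 0.077 for the 14 probes and 0.092 for all probes, so the median of the members was not above that of the rest there. Without low-RFI pig 8 the median of the 14 probes was 0.098, without high-RFI pig 2 it was 0.11, and without high-RFI pig 6 it was 0.11. As 7 of the 14 probes measure MGST1, they are not independent. By gene, GSTA1 and GSTA2 had negative differences and GSTA4, GSTO1 and MGST1 positive ones.

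**Figure D5:**
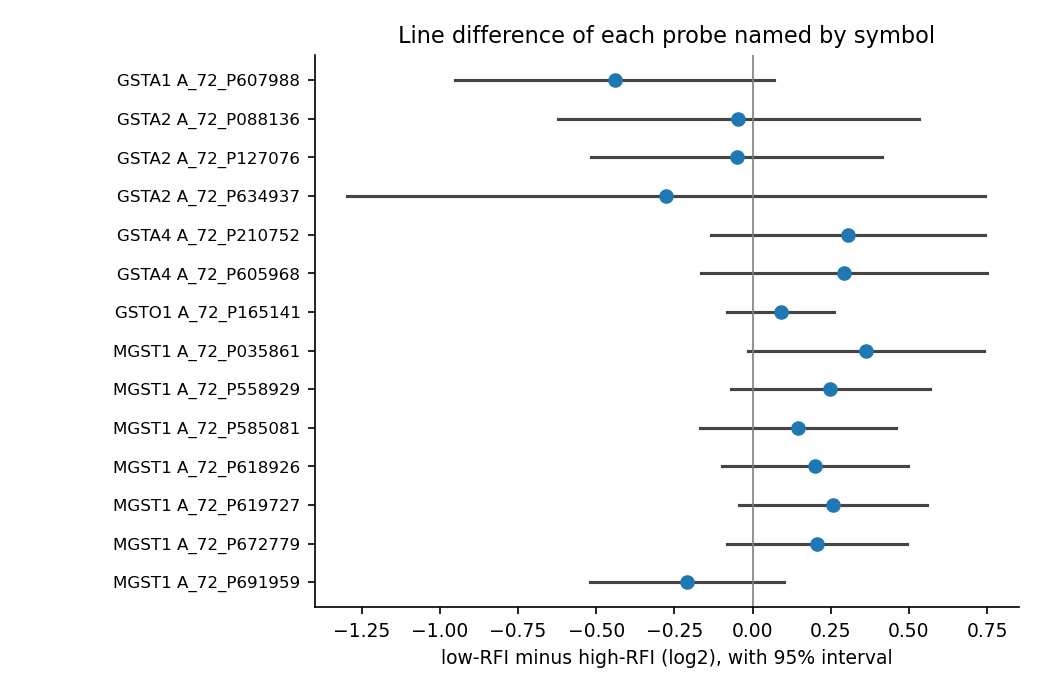
Difference low-RFI minus high-RFI (log2) of each probe named by symbol, with its 95% interval from the limma fit. All 14 intervals include 0, the widest is that of GSTA2 probe A_72_P634937 and the narrowest that of GSTO1.

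Apart from GSTA1 with GSTA2, the gene pairs that varied together over 16 pigs were GSTO1 with MGST1 (r = 0.757, rho = 0.771, adjusted permutation p = 0.0061) and GSTA4 with GSTO1 (r = 0.719, rho = 0.724, adjusted permutation p = 0.0063). Without the 2 farthest pigs these were 0.523 and 0.540. Within lines GSTO1 with MGST1 had r = 0.847 in low-RFI and 0.638 in high-RFI pigs, and GSTA4 with GSTO1 had 0.560 in low-RFI and 0.808 in high-RFI pigs. With slide means removed, GSTO1 with MGST1 had r = 0.759 (adjusted permutation p = 0.028), and GSTA4 with GSTO1 had r = 0.654 (adjusted permutation p = 0.106), which did not pass. The other 7 of 10 gene pairs did not pass in either setting. GSTA1 with GSTA4, both of the alpha class, had r = 0.143 over all pigs, 0.826 within the low-RFI line and 0.0062 within the high-RFI line, a difference that was not tested.

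The genes whose levels were most like those of a member over the 16 pigs were found by Pearson's r among 3995 named genes, as a description. For GSTA1 these were UQCC (0.837), NDUFA4 (0.822) and UQCRB (0.761). For GSTA2 they were CTNNA1 (0.856), TPI1 (0.836) and NDUFC1 (0.792). For GSTA4 they were MIF (0.795) and RING1 (0.747), and for GSTO1 PPIA (0.769), CLYBL (0.750) and MIF (0.730). For MGST1 they were OTC (0.868), CLYBL (0.847) and PRDX3 (0.811). BHMT and NUP133 came first for each of the 3 probes listed by name, at 0.808 and 0.777 for A_72_P302044, with IRAK1BP1 or BNIPL next, but those values compare a gene with a signal in 2 clusters.

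Genes around the members in glutathione metabolism were followed by lists, and 0 of their tested genes passed. Of 24 other glutathione transferases and relatives, 3 were tested by symbol. They were MGST3 at 0.12, PTGES at -0.19 and ALOX5AP at -0.25, a microsomal transferase, a prostaglandin synthase and a leukotriene pathway protein. Of 38 genes of glutathione synthesis and use, 15 were tested, of which 11 had a positive and 4 a negative difference (median 0.11). Of 38 regulators and NFE2L2 targets, 23 were tested, of which 9 were positive and 14 negative (median -0.05). NFE2L2 is the transcription factor that drives many transferase genes under oxidative or electrophilic stress.

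The smallest p-values over these lists were those of 4 genes. CYP3A29, a pig cytochrome P450 of drug metabolism, averaged 5.43 ± 0.23 in low-RFI pigs, against 5.91 ± 0.32 in high-RFI pigs (SD, n = 8 each), a difference of -0.48 (limma adjusted p = 0.521). GPX3, the secreted glutathione peroxidase, averaged 3.90 ± 0.49 in low-RFI pigs, against 4.77 ± 0.65 in high-RFI pigs, a difference of -0.86 (limma adjusted p = 0.568). ABCC2, which exports glutathione conjugates into bile, differed by 0.44 (limma adjusted p = 0.935), and the aldehyde reductase AKR1A1 by 0.23 (limma adjusted p = 0.965).

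Markers of the cells that liver RNA can hold were checked beside the members, and 0 passed. With the number tested and their median difference, they were hepatocyte 8 of 13 at 0.08, pericentral hepatocyte 6 of 9 at -0.04, and bile duct 7 of 10 at 0.01. T and NK cell markers gave 9 of 10 at 0.16, Kupffer cell 5 of 10 at 0.02, granulocyte 3 of 6 at -0.21, and B and plasma cell 1 of 6 at -0.03. Stellate cell markers gave 7 of 10 at -0.14, endothelium 7 of 9 at 0.08, and tissue taken along 5 of 8 at -0.0031, while 0 of 8 erythroid markers were tested. The mean centred level of the hepatocyte markers was -0.095 to 0.19 in low-RFI pigs and -0.10 to 0.018 in high-RFI pigs. Their part in the levels of the members was not tested.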

How the data were processed

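Per the file headers, the software was Agilent Feature Extraction 10.7.3.1 (protocol GE1_107_Sep09). The deposited processed signal is a linear intensity from which the software has removed background and spatial trend, array by array. The authors' deposited series table holds log2 values of 27938 spots, equal to the centred log2 processed signal within 4.5e-08. The submitters' processing notes name R 2.10.0. Flags of the scanner software were used for background and outliers.

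Levels are the log2 processed signal minus the array's 75th percentile, with outlier spots set to missing and spots of a probe averaged. Probes well above background on at least 8 of 16 arrays were tested (30097 of 43603), and 13506 were left out. Low-RFI minus high-RFI was fitted in R 4.3.3 with limma 3.58.1, and p-values were adjusted over all of these probes (Benjamini-Hochberg). Nothing says that pigs were unrelated. The p-values take the pigs as independent, so they may be off if some were related, and they concern only the lines sampled here. Relations were tested with 100000 permutations (numpy 2.4.6, scipy 1.17.1), and figures drawn with matplotlib 3.10.9. The fit was tested on simulated data, with changes larger than any difference of the probes named by symbol, placed in probes of below-median SD. It recovered 100% of these changes, and 5.66% of its calls lay outside them. That test does not show how well differences as small as those of the members are found. Symbols came from the files and RefSeq names only (5461 of 5779 probes named by a RefSeq accession matched). No genome sequence was used, so positions are not given.

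Members and lists were chosen with earlier results of these data known. A gene stands by its brightest probe. Named were all members, the 3 genes most like each, and the 4 list genes with the smallest p; 1 gene of these is not reported here. Alternatives were normexp background correction (offset 50), quantile, median and cyclic loess scaling, the authors' table, other filters, outlier spots kept, slide, array position and replicate number as blocks, array noise as a covariate, trend with robust variances, the mean over a gene's probes, and leaving out each pig. Removing slide means from relations was added after the data had been seen.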

Additional observations from a re-analysis of the deposited data

Results flagged for a closer look

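For 3 of the 7 MGST1 probes, low-RFI pig 8 lay far above the other 7 pigs of its line by Dixon's test. Its level was 6.86 for A_72_P558929, where the next pig had 6.39. For A_72_P585081 it was 5.23, with the next pig at 4.76, and for A_72_P672779 it was 6.72, with the next at 6.31. The same pig also had the highest low-RFI level of GSTA2 (8.33), GSTA4 (3.64), GSTO1 (8.16) and A_72_P302044 (7.15). Without it the MGST1 difference was 0.13. The MGST1 probes overlap in sequence or measure the same RNA, so the 3 are not separate cases. In all, 34 groups were checked, and chance alone would flag about 1 in 20.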

How the results depend on the processing

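Under the 31 alternative settings, GSTA1 stayed between -0.62 and -0.34, GSTA4 between 0.19 and 0.43, and MGST1 between 0.10 and 0.27, with 0 member probes called in any setting. GSTA2 changed sign without low-RFI pigs 1 or 7 or high-RFI pigs 7 or 8, over a range of -0.17 to 0.045 when each pig was left out. GSTO1 changed sign under normexp (-0.010), and the cause was not tested. Leaving out each pig moved the median over the 14 probes between 0.098 and 0.24. With array position as a block this median was 0.10 and the MGST1 difference 0.13, and the MGST1 difference was 0.098 with normexp. GSTO1 was 0.033 with quantile scaling and 0.045 with cyclic loess. The lines share replicate numbers, but the labels do not say that a number marks a shared litter or batch, so the pigs were not treated as paired. Same-numbered deviations correlated at 0.047 to 0.395, over 0.1 in 6 of 8 pairs. Of 8 low-RFI pigs, 5 matched best with their own number. The highest correlation, 0.395, was that of number 5. Whether a number marks a pair of pigs was not tested. Both pigs numbered 5 lay on slide 2 and both numbered 8 on slide 4, so pairing and a shared slide cannot be told apart there. With the replicate number as a block, 4 probes in all were called in place of 3 and the lowest member adjusted p was 0.638. Dim signal near background limits the size of the gaps of the 3 probes listed by name.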

Other observations

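Other probes are described in the files as glutathione S-transferases without carrying a listed symbol. These were looked at after their values had been seen. Of 18 such probes, 17 were tested, 0 passed (limma, adjusted p of 0.05), 8 had a positive and 9 a negative difference. A_72_P402778, described as pig glutathione S-transferase mu 2, had the smallest p among them, at -4.19 ± 0.85 in low-RFI pigs, against -2.70 ± 0.52 in high-RFI pigs (SD, n = 8 each). Its difference was -1.49 (SE 0.322, limma adjusted p = 0.234), negative within all 4 slides at -2.34, -0.80, -1.79 and -1.03. Its signal is dim, and under normexp, whose offset of 50 units narrows differences of dim probes, the difference was -0.24 (limma adjusted p = 0.695). The other mu 2 probes, A_72_P133001 and A_72_P536251, were brighter and gave -0.28 and -0.17. Their means were 3.21 and 3.45 in low-RFI pigs, against 3.49 and 3.61 in high-RFI pigs.

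GSTP1 has no probe by its symbol, but 2 probes are described as the pig pi-class enzyme. A_72_P303992 averaged 0.98 ± 0.75 in low-RFI pigs, against 1.34 ± 0.72 in high-RFI pigs (SD, n = 8 each), a difference of -0.35. A_72_P227172 gave -0.47, and neither passed.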
